A study of Homo sapiens with 9 samples.

Results

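The human mitochondrial genome (chrM) held 37 of the 57820 genes in the Chrom-seq count table. All 37 were taken as members by position alone, and the rule used no measured value, although earlier results of these data were known when it was set. They comprised 13 mRNAs, 2 rRNAs and 22 tRNAs, and 34 of them had a count in at least 1 library. In the reference annotation of GRCh37 all 37 had the start, end and strand given in the count table.

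Chrom-seq labels RNA near a chromatin mark with biotin, using the peroxidase APEX2 brought to the mark by a reader domain. HEK293T, a human embryonic kidney cell line, was transiently transfected with scFv-APEX2 from a chicken β-actin promoter and with a GCN4 epitope plasmid from a cytomegalovirus promoter, and after 48 hours received 500 µM biotin-aniline for 30 min and 1 mM H2O2 for 1 min. The 9 libraries formed 3 groups of 3. In CBX1 the epitopes carried the chromodomain of CBX1, a reader of H3K9me3, in CBX1_W42A the same domain with a changed tryptophan, and in Control no reader. The sample descriptions carry the tag NLS in all 3 groups, which they do not explain. Every group thus held the transfected APEX2 fusion, biotin-aniline and peroxide, and by the stated design Control differed by the reader domain. The sample records of CBX1_W42A are not numbered in sequence with those of Control and CBX1. Whether all libraries were prepared and sequenced together is not stated, and a difference in preparation was not tested. Biotinylated RNA was pulled down on streptavidin and poly(A) selected, and the pulled-down RNA alone was sequenced. The values below are therefore levels in the capture and not levels in the cell.

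Mitochondrial DNA is transcribed on both strands into long precursors, which are cut at the tRNAs into mRNAs, rRNAs and tRNAs. The mRNAs encode core subunits of respiratory complexes I, III and IV and of the ATP synthase (complex V), and the remaining subunits come from nuclear genes. The RNAs are made, processed and translated inside the organelle, while the marks read by chromodomains lie on nuclear histones. Biotin-aniline is known to react mainly with guanosine, so the guanine content of each transcript was recorded beside its level.

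Of the 37 genes, 28 were transcribed from the heavy strand and lay on the plus strand of the reference, and 9 were transcribed from the light strand. The light-strand genes were MT-ND6, the only light-strand mRNA, and 8 tRNAs. Guanine made up 13.1% of the bases in the sense of heavy-strand transcription and 31.3% in the sense of light-strand transcription. The sequences below are given in the sense of the RNA, 5′ to 3′ with T for U, and capitals mark guanine. They were read from GRCh37. The 3 tRNAs are the light-strand tRNAs that differed from Control by the tests described below.

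MT-TA, alanine tRNA, chrM:5587-5655, minus strand: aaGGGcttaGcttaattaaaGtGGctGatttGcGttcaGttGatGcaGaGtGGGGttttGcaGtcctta
MT-TQ, glutamine tRNA, chrM:4329-4400, minus strand: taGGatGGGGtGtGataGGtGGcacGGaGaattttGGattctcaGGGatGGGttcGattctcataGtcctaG
MT-TS1, serine tRNA, chrM:7446-7514, minus strand: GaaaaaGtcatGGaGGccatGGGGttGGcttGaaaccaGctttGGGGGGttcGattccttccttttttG

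The next 3 sequences are the first 90 bases of the light-strand mRNA MT-ND6, of MT-ND5, the heavy-strand mRNA beside it that is read toward it, and of MT-CO1, the mRNA with most counts. They contain 27, 3 and 18 guanines.

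MT-ND6, chrM:14584-14673, minus strand: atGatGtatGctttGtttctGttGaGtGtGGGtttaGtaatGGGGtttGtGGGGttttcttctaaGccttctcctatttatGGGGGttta
MT-ND5, chrM:12337-12426, plus strand: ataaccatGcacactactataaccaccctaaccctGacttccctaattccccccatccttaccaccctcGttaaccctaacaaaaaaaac
MT-CO1, chrM:5904-5993, plus strand: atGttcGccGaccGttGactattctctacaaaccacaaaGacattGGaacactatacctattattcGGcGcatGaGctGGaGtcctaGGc

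MT-ATP8 and MT-ATP6 share 46 bases of 1 bicistronic RNA, shown here because a read pair in that stretch belongs to both genes: chrM:8527-8572, plus strand, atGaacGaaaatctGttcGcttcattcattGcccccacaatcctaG. This left 161 of the 207 bases of MT-ATP8 free of another gene on its strand. MT-ND4L and MT-ND4 shared 7 bases, and MT-ATP6 and MT-CO3 shared 1. How such read pairs were counted is not given in the sources used here, so the counts of these overlapping genes are uncertain.

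The libraries held 8379542 to 11082852 counts, of which 292953 to 479378 lay in chrM genes. The HEK293T markers NEFL, NEFM, PAX2, LIN28B, KRT8, KRT18 and VIM had at least 36 counts in every library. Of the markers of other cells, CD3E and SFTPC were at 0, and PTPRC had at most 2 counts per library, TTN at most 6 and ALB at most 25. Genes with a count numbered 21709 to 21876 in Control, 23289 to 23819 in CBX1 and 22649 to 23498 in CBX1_W42A. The 379 olfactory receptor genes, which kidney-derived cells are not known to use, held 20, 22 and 3 counts in Control, 34, 24 and 16 in CBX1 and 18, 21 and 23 in CBX1_W42A, so the groups overlapped and replicate 3 of Control was lowest. The number of genes with a count was higher in every reader library than in every Control library, and its part in the mitochondrial values was not tested.

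Mitochondrial transcripts took a larger share of the captured RNA with either reader than without one. In Control, 3.16%, 3.45% and 3.50% of all counts lay in chrM genes (95% Wilson intervals 3.15 to 3.17, 3.44 to 3.46 and 3.48 to 3.51). In CBX1 the shares were 4.70%, 4.45% and 4.36% (4.69 to 4.71, 4.44 to 4.46 and 4.35 to 4.38), and in CBX1_W42A 4.33%, 4.39% and 4.20% (4.31 to 4.34, 4.38 to 4.40 and 4.19 to 4.22). Every reader library lay above every Control library, while the CBX1 and CBX1_W42A libraries overlapped. The spread between libraries of a group was wider than these intervals, which cover counting error only. They also treat each count as independent, while reads were counted without collapsing duplicates as far as the methods state.

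The mean share was 4.50% ± 0.175 (SD, n = 3) in CBX1 and 3.37% ± 0.180 (SD, n = 3) in Control, a ratio of 1.34 and a difference of 1.13 percentage points (SE 0.145, exact two-sided permutation p = 0.1, adjusted p = 0.15). CBX1_W42A, at 4.31% ± 0.0947 (SD, n = 3), exceeded the same Control libraries by 0.936 percentage points (SE 0.118, exact two-sided permutation p = 0.1, adjusted p = 0.15), a ratio of 1.28. CBX1 exceeded CBX1_W42A by 0.197 percentage points (SE 0.115, exact two-sided permutation p = 0.2, adjusted p = 0.24), and by 0.0995 without replicate 1 of CBX1. With 3 libraries against 3 the smallest p this test can give is 0.1, so no difference in share could reach 0.05, and the adjustment covered 6 such tests. The study calls its replicates independent, and the labels do not say whether they were separate cultures, so the spread behind these p-values may be partly technical. Counts are relative, and a larger capture of mitochondrial RNA, more of it per cell and a smaller capture of other RNA cannot be told apart.

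**Figure D1:**
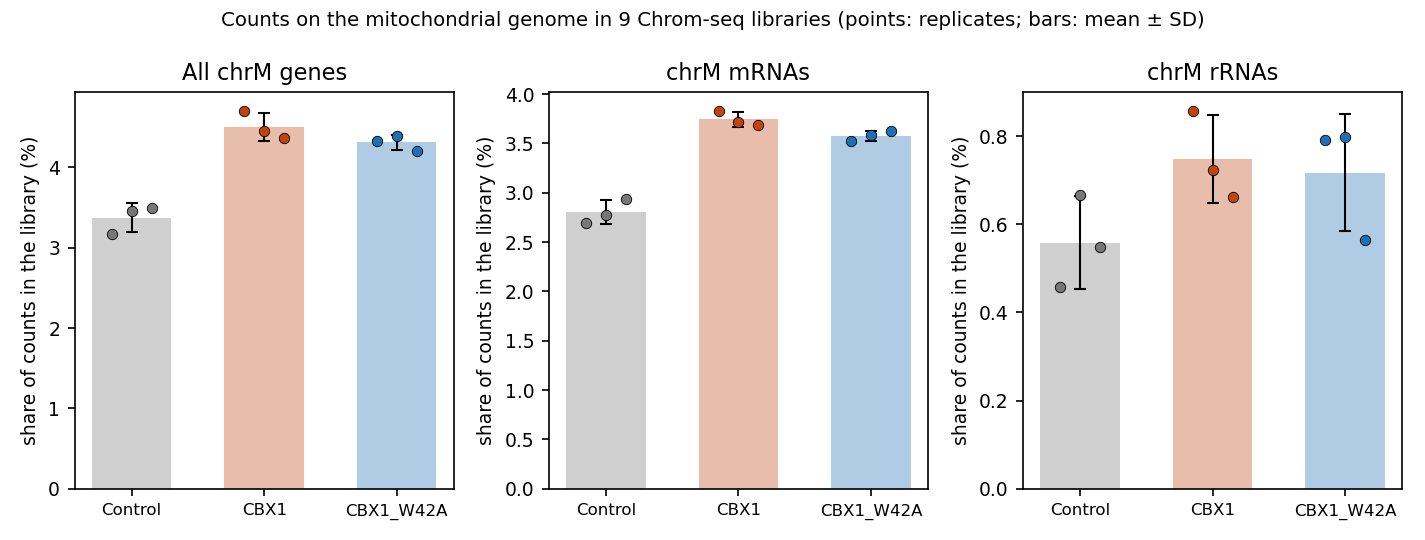
Share of all counts in a library, in percent, that lay in the 37 chrM genes, the 13 mRNAs and the 2 rRNAs, with 1 point per library and bars at the group mean ± SD (n = 3). The CBX1 and CBX1_W42A libraries lie above all Control libraries for all chrM genes and for the mRNAs, while for the rRNAs the groups overlap.

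The 13 mRNAs took 2.70 to 2.94% of a Control library, 3.69 to 3.83% of a CBX1 library and 3.52 to 3.63% of a CBX1_W42A library, with no overlap between any of the groups. The 2 rRNAs took 0.457 to 0.668%, 0.661 to 0.857% and 0.564 to 0.798%, and these ranges overlapped. The 22 tRNAs together took 0.00773 to 0.00944% of Control, 0.0106 to 0.0154% of CBX1 and 0.0118 to 0.0151% of CBX1_W42A libraries. The reader libraries were higher than Control for the mRNA and tRNA classes, and the mix within the mitochondrial counts differed little. The mRNAs made up 83.2% ± 2.51 (SD, n = 3) of the chrM counts in Control, 83.2% ± 1.54 in CBX1 and 83.1% ± 2.77 in CBX1_W42A.

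Per length of gene, MT-CO1, the catalytic core subunit of complex IV, MT-ATP6, a subunit of the proton channel of complex V, and MT-ND6, a membrane subunit of complex I, had the highest levels. In Control they held 5740 ± 474, 5357 ± 161 and 5056 ± 1106 counts per 1000000 of the TMM-scaled library total (CPM) per kb of gene (SD, n = 3), and their order was not resolved within this spread. MT-CO2, a copper-binding subunit of complex IV, followed at 3665 ± 275 CPM per kb, and the large rRNA MT-RNR2 at 3284 ± 667 CPM per kb. MT-ND4 held 2525, MT-ND4L 1980, MT-ND2 1558, MT-CYB 1539, MT-CO3 1334, MT-ND1 1259, MT-ND5 1060 and MT-ATP8 1029 CPM per kb in the Control mean. The small rRNA MT-RNR1 came next at 721 ± 81.7 CPM per kb.

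MT-ND3, a small complex I subunit, was last at 85.4 ± 17.3 CPM per kb in Control, 103 ± 14.4 in CBX1 and 85.8 ± 24.4 in CBX1_W42A (SD, n = 3). Its next mRNA on the same strand, MT-ND4L, lay 1 tRNA away and was at 1980 ± 326 CPM per kb in Control. MT-ND6 held 7257 ± 1215 CPM per kb in CBX1 and 7215 ± 1307 in CBX1_W42A, beside 7544 ± 1116 and 6848 ± 368 for MT-CO1. The first 3 places were held by the same 3 transcripts in every group, with MT-ND6 in the third place in Control, the second in CBX1 and the first in CBX1_W42A, and the difference between MT-ND6 and MT-CO1 in each group was smaller than the SD of MT-ND6. MT-ND6 mRNA is known to carry little or no poly(A) tail, and these libraries were poly(A) selected.

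**Figure D2:**
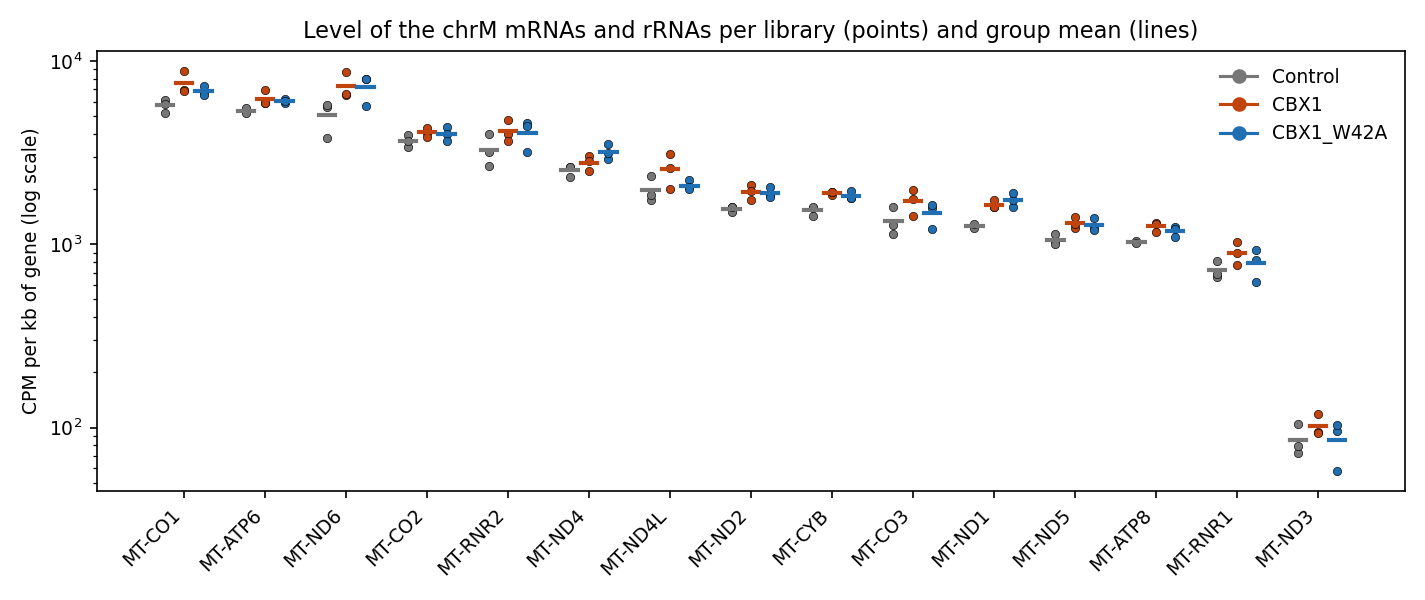
Level of each of the 15 chrM mRNAs and rRNAs in CPM per kb of gene on a log axis, 1 point per library and a line at the mean of each group (n = 3), ordered by the Control mean. MT-CO1, MT-ATP6 and MT-ND6 lie highest and MT-ND3, at 85.4 CPM per kb in Control, lies far below the rest.

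The comparison of CBX1 with Control asked which RNAs the H3K9me3 reader captured beyond the reader-free labelling. Of the 37 mitochondrial genes, 23 passed the filter of more than 18 counts over the 6 libraries, 11 of them were higher with CBX1 at an adjusted p below 0.05, and 0 were lower. Among all 18837 genes tested, 10.6% were higher and 9.46% lower by the same test, the edgeR quasi-likelihood test with p-values adjusted by Benjamini-Hochberg. At an unadjusted p below 0.05 the members counted 15 higher and 0 lower, and DESeq2 called 10 higher and 0 lower. The shares of all genes under these rules were not counted in any comparison. Leaving out 1 library left 6 to 12 higher, with 6 without replicate 1 of Control or replicate 3 of CBX1. The log2 fold changes of the 23 ranged from -0.36 to 0.80 with a median of 0.32, beside a median of 0.03 over all genes. Of the 23, 22 were above 0, beside 52.9% of all genes. The 11 calls comprised 8 of 13 mRNAs, 1 of 2 rRNAs and 2 of the 8 tRNAs tested.

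The log2 fold changes of the 13 mRNAs ran from 0.15 for MT-ND4 to 0.53 for MT-ND6. The study's further requirement of a log2 fold change of at least 0.75 was met by 1 member, MT-TS1, and by 7.06% of all genes in the upward direction. In 11 members every CBX1 library lay above every Control library on the scaled counts, against 19.2% of all genes.

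Complex I is the entry point for electrons from NADH. MT-ND1, which lies beside the quinone site of complex I, had 1208, 1177 and 1226 CPM in Control and 1520, 1667 and 1532 CPM in CBX1. The groups were far apart for their spread, and the log2 fold change was 0.39 (SE 0.08, edgeR quasi-likelihood adjusted p = 0.00399). MT-ND2, a proton-pumping subunit, had 1656, 1560 and 1656 CPM in Control and 1815, 2197 and 2028 CPM in CBX1, with no overlap (log2 fold change 0.32, SE 0.09, edgeR adjusted p = 0.0203, a call lost under 5 of 16 alternative settings). MT-ND5, another proton-pumping subunit, had 1886, 1822 and 2057 CPM in Control and 2228, 2334 and 2554 CPM in CBX1, again with no overlap (0.31, SE 0.09, edgeR adjusted p = 0.0210, a call lost under 3 of 16 alternative settings).

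The light-strand mRNA MT-ND6 had 2943, 1986 and 3034 CPM in Control and 3412, 3473 and 4546 CPM in CBX1. Its groups did not overlap although replicate 2 of Control was low and replicate 3 of CBX1 high. Its log2 fold change of 0.53 (SE 0.14, edgeR quasi-likelihood adjusted p = 0.0133) was the highest of the 13 mRNAs in this fit. The call was lost with DESeq2 (DESeq2 Wald test adjusted p = 0.0927) and without replicate 3 of CBX1. Without replicate 2 of Control its log2 fold change was 0.36, below the 0.53 of MT-ND4L in that fit. MT-ND4, a heavy-strand complex I mRNA with at least 28431 counts in every library, did not pass the test, with 3595, 3178 and 3614 CPM in Control and 3434, 4153 and 3891 CPM in CBX1, which overlapped (0.15, SE 0.09, edgeR adjusted p = 0.258). MT-ND4L and MT-ND3 had log2 fold changes of 0.39 (SE 0.14, edgeR adjusted p = 0.0566) and 0.27 (SE 0.14, edgeR adjusted p = 0.194) and did not pass either.

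MT-CYB, cytochrome b, is the only mitochondrially encoded subunit of complex III. It had 1634, 1807 and 1825 CPM in Control and 2122, 2209 and 2196 CPM in CBX1, without overlap (log2 fold change 0.32, SE 0.09, edgeR quasi-likelihood adjusted p = 0.0155). For complex IV, which passes electrons to oxygen, MT-CO1 rose by 0.40 on the log2 scale (SE 0.10, edgeR adjusted p = 0.0127), from 8048, 9477 and 9026 CPM to 13620, 10730 and 10550 CPM. MT-CO3, a core subunit without a redox centre, rose by 0.37 (SE 0.13, edgeR adjusted p = 0.0463) although its lowest CBX1 library, at 1114 CPM, lay below the highest Control library, at 1243 CPM, and the call was lost under 6 of 16 alternative settings. MT-CO2 had 2315, 2692 and 2514 CPM in Control and 2755, 2961 and 2635 CPM in CBX1 and did not pass (0.16, SE 0.09, edgeR adjusted p = 0.222).

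In complex V, MT-ATP8, a short subunit of the membrane part, had 166, 167 and 164 CPM in Control and 211, 207 and 188 CPM in CBX1. These groups did not overlap, and the log2 fold change was 0.29 (SE 0.09, edgeR quasi-likelihood adjusted p = 0.0272), a call lost under 5 of 16 alternative settings. MT-ATP6, from the same RNA, had 3386, 3300 and 3503 CPM in Control and 3741, 4372 and 3743 CPM in CBX1, also without overlap, but did not pass (0.23, SE 0.09, edgeR adjusted p = 0.0775).

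The 2 rRNAs belong to the mitochondrial ribosome. MT-RNR1 had 629, 776 and 659 CPM in Control and 980, 852 and 736 CPM in CBX1, which overlapped, and passed narrowly (log2 fold change 0.32, SE 0.11, edgeR quasi-likelihood adjusted p = 0.0486), a call lost under 7 of 16 alternative settings. MT-RNR2, the most abundant RNA after MT-CO1 by counts, had 4160, 6226 and 4974 CPM in Control and 7380, 6219 and 5683 CPM in CBX1 and did not pass (0.34, SE 0.13, edgeR adjusted p = 0.0711).

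The tRNAs deliver amino acids to the mitochondrial ribosome, and their counts differed between the strands. The 14 heavy-strand tRNA genes held 517 counts over all 9 libraries, with a median of 3, and 11 of them had 18 counts or fewer. MT-TI, MT-TD and MT-TG had none in any library, which allows up to 0.272 to 0.368 CPM per library (3 counts of the scaled library total). The 8 light-strand tRNA genes held 9696 counts with a median of 580, led by MT-TA with 6295. Some light-strand tRNAs lay far from the next gene on their strand. The gap was 1186 bases between MT-TQ and MT-TA and 1554 between MT-TY and MT-TS1. It was 6634 bases between MT-TS1 and MT-ND6 and 1213 between MT-TE and MT-TP. Others lay close, with MT-TA 1 base from MT-TN and MT-TN 31 bases from MT-TC. MT-TC overlapped MT-TY, and MT-TE abutted MT-ND6. MT-TN, MT-TC and MT-TY held 8, 29 and 23 counts over all 9 libraries. Whether spacing bears on the counts was not tested. Most heavy-strand tRNAs abutted their neighbours, as MT-TV does between MT-RNR1 and MT-RNR2. A tRNA gene spans 59 to 75 bases, so a read pair longer than the gene covers its flanks too, and mature tRNA and uncut precursor cannot be told apart in these counts. The strand setting of the counting is not given in the sources used here. Without strand, reads from a light-strand gene and from heavy-strand RNA over the same bases cannot be told apart.

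**Figure D3:**
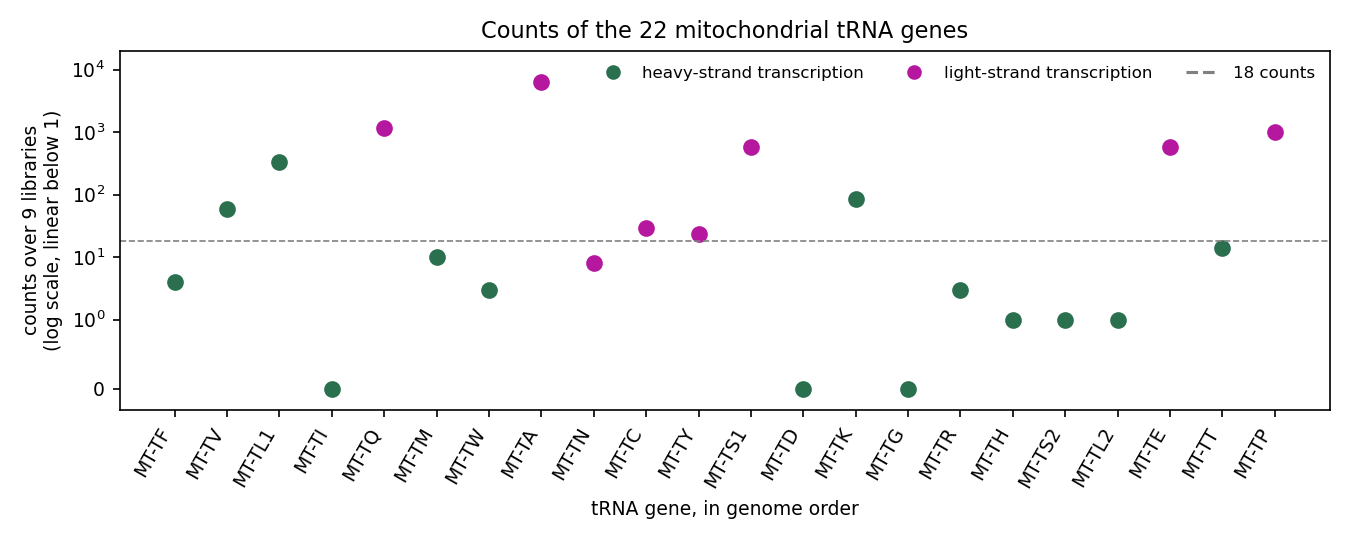
Counts of each of the 22 mitochondrial tRNA genes summed over 9 libraries, on an axis that is logarithmic above 1 and linear below, in genome order and coloured by strand, with a dashed line at 18 counts. Light-strand genes reach 6295 counts (MT-TA), while 11 of the 14 heavy-strand genes lie at or under the line and 3 have no count.

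MT-TA had 57.3, 49.2 and 56.0 CPM in Control and 85.4, 60.7 and 98.02 CPM in CBX1, with no overlap, and rose by 0.60 on the log2 scale (SE 0.14, edgeR quasi-likelihood adjusted p = 0.00677). MT-TS1 had 4.45, 3.91 and 4.66 CPM in Control and 7.06, 8.86 and 6.72 CPM in CBX1, from 35 to 79 counts per library, and rose by 0.80 (SE 0.21, edgeR adjusted p = 0.0153). MT-TQ had 7.93, 10.5 and 10.5 CPM in Control and 11.5, 12.8 and 15.9 CPM in CBX1, also without overlap, but did not pass (0.49, SE 0.18, edgeR adjusted p = 0.0603). All 3 lie on the light strand and were higher in every CBX1 library than in every Control library.

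MT-TP, the proline tRNA, and MT-TE, the glutamate tRNA, had log2 fold changes of 0.39 (SE 0.20, edgeR quasi-likelihood adjusted p = 0.177) and 0.04 (SE 0.27, edgeR adjusted p = 0.941). The heavy-strand tRNAs tested, MT-TL1, MT-TV and MT-TK, had 3 to 45 counts in each of the 6 libraries and log2 fold changes of 0.31 (SE 0.34), -0.36 (SE 0.63) and 0.01 (SE 0.50), so changes of the size seen in the mRNAs were not detectable at this depth.

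**Figure D4:**
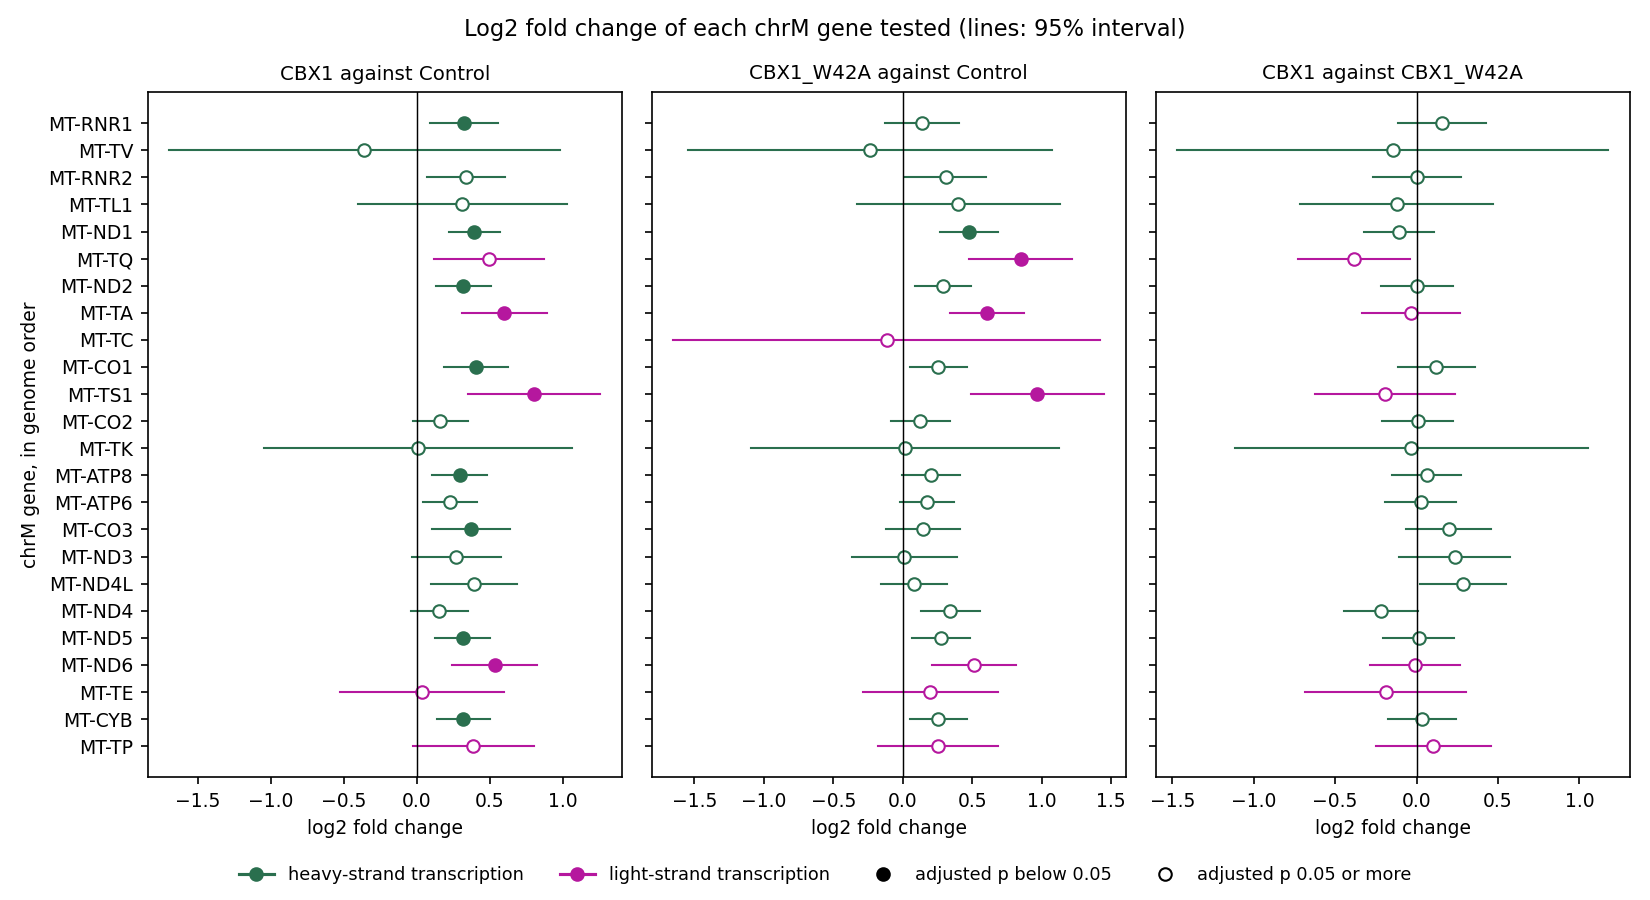
Log2 fold change with its 95% interval for every chrM gene tested, in genome order, for CBX1 against Control, CBX1_W42A against Control and CBX1 against CBX1_W42A, with filled points at an adjusted p below 0.05 and colour by transcribed strand. Nearly all points lie right of 0 in the panels against Control, with 11 and 4 filled, and none is filled in the panel of the 2 readers.

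The comparison of CBX1_W42A with Control asked what the mutant reader captured. It used the same Control libraries, so its values are not independent of those for CBX1. Of 24 members tested, 4 were higher and 0 lower by the edgeR quasi-likelihood test after Benjamini-Hochberg adjustment, beside 1.37% and 1.25% of all 18680 genes. At an unadjusted p below 0.05, 11 were higher and 0 lower, and DESeq2 called 7 higher and 0 lower, again without a share of all genes. Without replicate 1 of Control or replicate 3 of CBX1_W42A the edgeR fit called 0, with 9 and 11 higher at an unadjusted p below 0.05, and without replicate 2 or 3 of Control it called 1. The median log2 fold change was 0.26, beside 0.01 over all genes, and 22 members were above 0, beside 51.7% of all genes. Without replicate 1 of CBX1_W42A the members' median was 0.16. The threshold of 0.75 was met by 2 members, MT-TQ and MT-TS1, and by 0.974% of all genes in the upward direction. In 11 members every CBX1_W42A library lay above every Control library, against 11.9% of all genes.

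The 4 called members were 1 mRNA and 3 light-strand tRNAs. MT-ND1 had 1529, 1663 and 1831 CPM in CBX1_W42A, above the 1177 to 1226 CPM of Control (log2 fold change 0.48, SE 0.10, edgeR quasi-likelihood adjusted p = 0.0207). MT-TQ had 15.9, 16.0 and 20.1 CPM against 7.93 to 10.5 CPM (0.85, SE 0.18, edgeR adjusted p = 0.0201), and MT-TA 96.6, 69.0 and 81.3 CPM against 49.2 to 57.3 CPM (0.61, SE 0.13, edgeR adjusted p = 0.0201). MT-TS1 had 8.24, 6.93 and 10.3 CPM against 3.91 to 4.66 CPM (0.97, SE 0.23, edgeR adjusted p = 0.0329). In all 4 the groups did not overlap, and the calls were lost under 4, 2, 5 and 5 of 16 alternative settings for MT-ND1, MT-TQ, MT-TA and MT-TS1.

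MT-ND6 had 4181, 2996 and 4187 CPM in CBX1_W42A, and its replicate 2 lay below the highest Control library, at 3034 CPM (log2 fold change 0.51, SE 0.14, edgeR quasi-likelihood adjusted p = 0.0601). MT-ND4 had 3993, 4334 and 4835 CPM and did not overlap with Control, without passing the test (0.34, SE 0.10, edgeR adjusted p = 0.0748). The log2 fold changes of MT-ND2, MT-ND5, MT-CYB and MT-CO1 were 0.29, 0.27, 0.26 and 0.26, each without overlap and each without passing the test (edgeR quasi-likelihood adjusted p = 0.112, 0.143, 0.155 and 0.158). MT-ATP8 and MT-ATP6 were at 0.20 and 0.18, also without overlap. The remaining mRNAs and the rRNAs overlapped with Control and ranged from 0.01 for MT-ND3 to 0.31 for MT-RNR2. The remaining tRNAs tested, MT-TP, MT-TE, MT-TL1, MT-TV, MT-TK and MT-TC (the cysteine tRNA, with 2 to 6 counts in each of the 6 libraries), overlapped with Control and ranged from -0.24 for MT-TV (SE 0.63) to 0.40 for MT-TL1 (SE 0.35).

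The direct comparison of CBX1 with CBX1_W42A asked whether the change in the reader altered the capture. Of 23 members tested, 0 were higher and 0 lower by the edgeR quasi-likelihood test after Benjamini-Hochberg adjustment, beside 1.32% and 0.925% of all 19360 genes. At an unadjusted p below 0.05, 1 member was higher (MT-ND4L) and 1 lower (MT-TQ), and DESeq2 called 0. The median was 0.00 and 13 members were above 0, beside 49.4% of all genes. In 0 members did every CBX1 library lie above every CBX1_W42A library, against 10.1% of all genes. In 1, MT-TQ, every CBX1 library lay below on the counts scaled for these 6 libraries, by a narrow margin that the CPM values do not show. The share of all genes lying below in every library was not counted, so this 1 member cannot be set against a background.

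The 95% intervals of the difference bounded it for the abundant transcripts. MT-ND1 differed by -0.11 (interval -0.33 to 0.11), MT-CO1 by 0.12 (-0.11 to 0.36), MT-CYB by 0.04 (-0.17 to 0.24) and MT-ND6 by -0.01 (-0.29 to 0.26) on the log2 scale. MT-ND4 differed by -0.22 (-0.44 to 0.01) and MT-ND4L by 0.29 (0.02 to 0.55, edgeR quasi-likelihood adjusted p = 0.257). MT-TQ differed by -0.38 (-0.73 to -0.04, edgeR adjusted p = 0.242), with 11.5, 12.8 and 15.9 CPM in CBX1 against 15.9, 16.0 and 20.1 CPM in CBX1_W42A.

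Most of the mitochondrial mRNAs are abundant, and abundant genes moved differently from the whole table. This split was added after the values were seen. Among the 2191 genes with a mean of at least 1000 counts in the 6 libraries of CBX1 and Control, 2.60% were higher and 29.1% lower with CBX1, and their median log2 fold change was -0.17. The 14 members in that range had a median of 0.32, 9 of them were higher and 0 lower, and 48 other genes were higher. In CBX1_W42A against Control, 0.470% of 2342 such genes were higher and 5.04% lower, with a median of -0.13, and of the same number of members 1 was higher and 0 lower, with a median of 0.26.

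The nuclear genes for the other subunits of complexes I, III, IV and V gave a reference from the same respiratory complexes. Of the 74 in the list, 65 were tested in CBX1 against Control, 2 were higher and 3 lower, beside 10.6% and 9.46% of all genes. The median log2 fold change was 0.05, and it differed between complexes. It was 0.04 for complex I (31 tested), -0.09 for III (9 tested), 0.46 for IV (9 tested) and 0.21 for V (16 tested). The median of complex IV was thus above the 0.32 of the mitochondrial members. NDUFB6, an accessory subunit of complex I, and COX7A2, a small subunit of complex IV, were higher (0.51, SE 0.15, and 0.59, SE 0.18), while ATP5A1, the α subunit of ATP synthase, UQCRFS1, the Rieske protein of complex III, and NDUFS1, an iron-sulphur subunit of complex I, were lower (-0.31, -0.35 and -0.27). In CBX1_W42A against Control 0 of 66 were called in either direction and the median was -0.03, with medians by complex from -0.14 to -0.01. In CBX1 against CBX1_W42A 2 of 65 were higher, UQCRH by 0.87 and COX7C by 1.09, beside 1.32% of all genes.

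The ratio of counts in the 13 mitochondrial mRNAs to counts in these 74 nuclear genes needs no scaling between libraries. It was 5.13, 3.92 and 4.91 in Control, 5.24, 6.30 and 5.17 in CBX1 and 5.14, 7.04 and 6.08 in CBX1_W42A. The lowest reader libraries lay only just above the highest Control library. On the log2 scale CBX1 exceeded Control by 0.26 (SE 0.15, exact two-sided permutation p = 0.1, adjusted p = 0.15), CBX1_W42A exceeded Control by 0.39 (SE 0.18, exact two-sided permutation p = 0.1, adjusted p = 0.15), and CBX1 differed from CBX1_W42A by -0.12 (SE 0.16, exact two-sided permutation p = 0.7, adjusted p = 0.7). Without replicate 2 of Control the difference of CBX1 from Control was 0.14, without replicate 2 of CBX1 it was 0.17, and that between the readers ran from -0.24 to -0.01 on leaving out 1 library (without replicate 1 and replicate 2 of CBX1_W42A). Against the 82 cytosolic ribosomal protein genes the corresponding differences were 0.19, 0.27 and -0.08, with groups that overlapped (exact two-sided permutation p = 0.5, 0.3 and 0.8). The 78 of these genes tested had a median log2 fold change of 0.19 in CBX1 against Control and 0.01 in CBX1_W42A against Control.

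Nuclear genes for mitochondrial transcription, RNA processing, stability and decay and mtDNA replication formed a further list of 32. Of 31 tested in CBX1 against Control, 0 were higher and 4 lower in the edgeR fit, with a median of -0.12, beside the 9.46% lower of all genes and 29.1% of abundant genes given above, so this count is near the background. PNPT1 and SUPV3L1, the exonuclease and helicase of the mitochondrial RNA degradosome, had log2 fold changes of -0.46 (SE 0.10) and -0.31 (SE 0.11). PDE12, a deadenylase of mitochondrial RNA, was at -0.40 (SE 0.11) and TBRG4, an RNA stability factor of the FASTK family, at -0.31 (SE 0.09). In CBX1_W42A against Control 0 were higher and TBRG4 alone was lower (-0.43, SE 0.11), and in CBX1 against CBX1_W42A 0 were called.

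Copies of mitochondrial DNA in the nuclear genome can take reads from chrM genes. In GRCh37 a stretch of chromosome 1, chr1:564461-570304, matched chrM:3911-9755 at 98.5% identity, which covers MT-ND2, MT-CO1, MT-CO2, MT-ATP8 and MT-ATP6 and 11 tRNAs in full. MT-TA, MT-TQ and MT-TS1 lay whole within runs of at least 100 bases identical to a nuclear chromosome, as did 58.2% of MT-CO1 and 52.1% of MT-ND2, while MT-ND3, MT-ND4L, MT-ND4, MT-ND5, MT-ND6, MT-CYB and MT-RNR2 held no such run. The 188 nuclear genes named as such copies held 204 to 391 counts per library, at most 0.0995% of the chrM counts, and 171 of them had no count. MTND4P12, a copy of MT-ND4 on chromosome 5, held most, with 129 to 330 counts, followed by MTND2P28 with 17 to 41 and MTATP6P1 with 18 to 41. Of 6 copies tested in each comparison 0 were called in either direction. Read pairs that match both places equally well cannot be assigned from these counts.

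Within a group, the libraries differed in the mix of mitochondrial transcripts. As a share of the counts in the 15 mRNAs and rRNAs, MT-ND6 had the largest spread between libraries of a group (pooled SD 0.32 on the log2 scale), followed by MT-ND3 (0.29), MT-RNR2 (0.21) and MT-ND4L (0.20). MT-CYB (0.06), MT-ATP8 (0.08) and MT-CO2 (0.08) had the smallest. The light-strand genes together made up 5.69 to 9.15% of the chrM counts in Control, 7.72 to 11.1% in CBX1 and 7.24 to 10.4% in CBX1_W42A.

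These deviations ran together across transcripts. A single component took 74.0% of the squared deviations, with MT-ND6, MT-ND4, MT-ND5, MT-ND2 and MT-ND1 on 1 side and MT-ND3, MT-RNR2, MT-CO3 and MT-RNR1 on the other. Shares of a common total cannot all rise together, and deviations from a group mean cancel within the group. Part of this opposition is therefore built into the measure. MT-ND4L lay on the side of MT-ND3 and the rRNAs, so the complex I mRNAs were found on both sides. Replicate 3 of CBX1_W42A, replicate 1 of Control and replicate 3 of CBX1 lay furthest to the side of MT-ND6. Replicate 2 of Control, replicate 1 of CBX1 and replicate 2 of CBX1_W42A lay furthest to the side of MT-ND3 and the rRNAs. The largest single deviations were those of MT-ND3 in replicate 3 of CBX1_W42A (-0.48) and of MT-ND6 in replicate 2 of Control (-0.44).

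**Figure D5:**
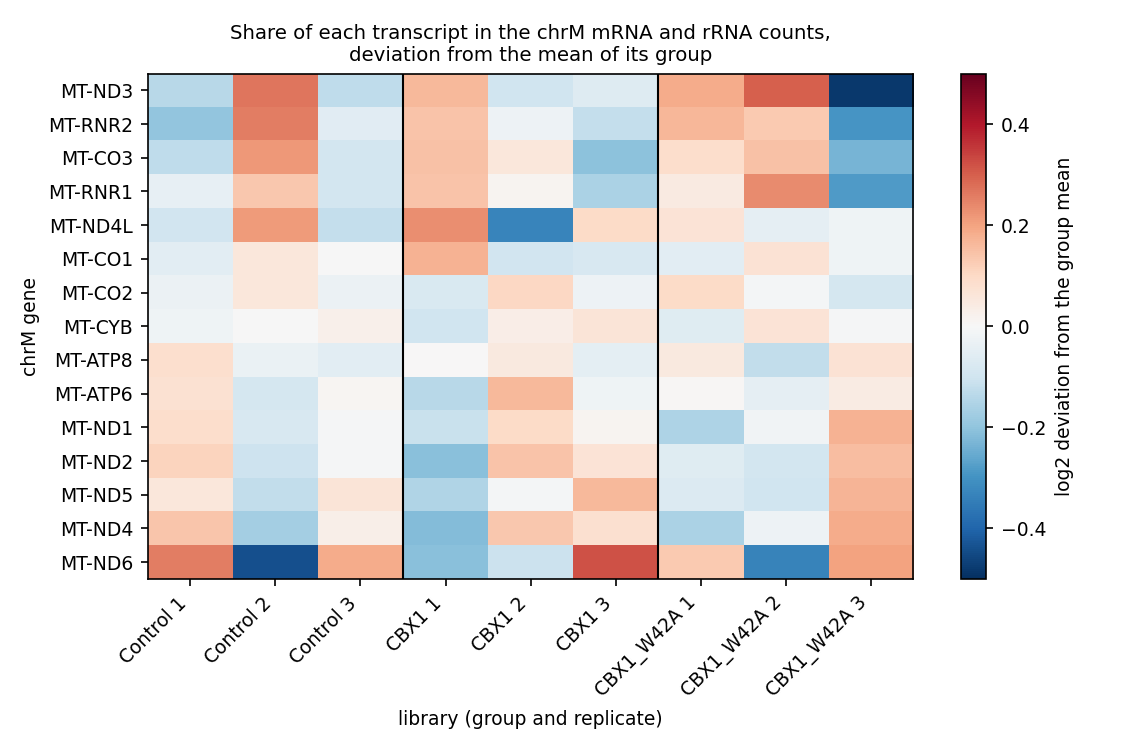
Share of each transcript in the counts of the 15 chrM mRNAs and rRNAs, as its log2 deviation from the mean of its own group, for 9 libraries (columns) and 15 transcripts (rows). Red is above and blue below the group mean, and MT-ND3, MT-RNR2, MT-CO3 and MT-RNR1 are mostly coloured opposite to MT-ND4, MT-ND5 and MT-ND6 in the same library.

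The guanine content of the 15 mRNAs and rRNAs ran from 6.28% in MT-ATP8 to 35.6% in MT-ND6, with 16.2% in MT-CO1. Its Spearman rho with the level in Control, in CPM per kb, was 0.29 over these 15 transcripts and 0.19 without MT-ND6. With the log2 fold change of CBX1 over Control rho was 0.59 over the 15 transcripts and 0.50 without MT-ND6. For CBX1_W42A over Control it was -0.03, and -0.27 without MT-ND6. Over all members tested, tRNAs included, it was 0.50 for CBX1 (23 genes) and 0.28 for CBX1_W42A (24 genes). With gene length rho was 0.05 in CBX1 and 0.51 in CBX1_W42A over the 15 transcripts, 0.19 and 0.70 without MT-ND6, and 0.00 and 0.18 over all members tested. These are descriptions over transcripts that share the same libraries and 2 precursor strands. MT-TA, MT-TQ and MT-TS1, whose sequences are given above, held 30.4%, 36.1% and 31.9% guanine.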

How the data were processed

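Poly(A)-selected RNA captured by Chrom-seq in 9 HEK293T libraries (3 groups of 3, assigned from the sample titles) was analysed from the deposited table of raw counts per gene. Per the submitters' notes and methods, the authors checked reads with FastQC 0.11.8, trimmed the random bases at the read ends with fastp 0.23.1, aligned to hg19 with HISAT2 2.1.0 and counted over the GENCODE annotation with featureCounts 2.0.1. The strand setting, the treatment of read pairs in more than 1 gene and the mitochondrial sequence in the aligner index are not given in the sources used here. Such choices decide how reads over tRNAs, overlapping genes and nuclear copies are counted.

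Each pair of groups was fitted with edgeR 4.0.16 (R 4.3.3, TMM scaling, quasi-likelihood test) over all genes with more than 18 counts summed over the 6 libraries, and p-values were adjusted by Benjamini-Hochberg over all genes tested. Levels are counts per 1000000 of the library total after TMM scaling over all 9 libraries (CPM), with factors of 0.954 to 1.03, and library shares use unscaled totals. Library shares were compared by exact permutation (scipy 1.17.1). Alternatives were DESeq2 1.42.0, other scalings and filters, all 9 libraries in 1 fit, a replicate block and leaving out each library. The edgeR and DESeq2 steps were tested on simulated data. Nuclear copies of chrM were found with BLAST 2.17.0 (at least 98% identity over 200 bases). All 13 mRNAs and 2 rRNAs are named. The tRNAs are named where they passed the filter, had the highest total or no count, or where their spacing is given. Genes of other lists are named where they passed the test (up to 4 per list by p). Members and lists were chosen with earlier results of these data known. No column of the table was left unused (0). An item of the marker list is not reported here.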

Additional observations from a re-analysis of the deposited data

How the results depend on the processing

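The number of mitochondrial transcripts called higher depended on the setting, and 0 were called lower under any alternative. In CBX1 against Control, 11 by edgeR became 7 with a replicate block, 1 with a log2 fold change of at least 0.75 added, and 6 to 12 on leaving out 1 library (6 without Control replicate 1 or CBX1 replicate 3, 7 without Control replicate 3, CBX1 replicate 1 or CBX1 replicate 2). The other alternatives gave 9 to 15. MT-ND1 passed under all 16 alternatives (log2 fold change at least 0.35). In CBX1_W42A against Control, 4 became 7 with DESeq2, with upper-quartile factors and with no filter, 5 with the block, 2 with the fold threshold, and 0 to 5 on leaving out 1 library: 0 without Control replicate 1 or CBX1_W42A replicate 3, 1 without Control replicate 2 or 3, and 2 without CBX1_W42A replicate 1. At an unadjusted p below 0.05 the fits that called 0 held 9 (without Control replicate 1) and 11. The share of all genes under this rule was not counted in any fit, so these numbers cannot be set against a background. All 16 alternatives gave 0 in CBX1 against CBX1_W42A, where 0 to 3 members were higher and 0 to 2 lower at an unadjusted p below 0.05. Of the log2 fold changes of single members under these alternatives, 34 lost and 17 gained a call in CBX1 against Control (of 364), 16 and 14 in CBX1_W42A against Control (of 373), and 0 reversed while called. Upper-quartile factors moved the median of all genes in CBX1 against Control from 0.03 to 0.11, and the members' median from 0.32 to 0.40. Scaling without the chrM genes left both within 0.01 of the reported values. The share of chrM counts kept its direction under every alternative, with 1.03 to 1.205 percentage points for CBX1 and 0.833 to 0.999 for CBX1_W42A on leaving out 1 library. Same-numbered libraries of CBX1 and Control had correlations of deviations of -0.10, -0.11 and 0.04. Those of CBX1_W42A and Control had -0.05, 0.09 and 0.08, and those of the readers 0.08, 0.05 and 0.06. Every CBX1 library correlated best with the CBX1_W42A library of its own number, while the reader libraries did not all do so with Control. Whether replicate numbers mark a shared preparation was not tested. Depth limits the heavy-strand tRNAs, and 14 members could not be tested in CBX1 against Control.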
